A study of Homo sapiens with 7 samples.

Results

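Eph receptors and ephrins were examined in PC9 cells that had lost the receptor tyrosine kinase AXL. The genes are EPHA1, EPHA2, EPHA4, EPHB2, EPHB3, EPHB4, EFNA1, EFNA5, EFNB1 and EFNB2. They were chosen by name, with earlier results of these data known. All 10 have a row in the authors' deposited comparison table, which holds 16527 genes. PC9 is an established human lung adenocarcinoma line with an activating EGFR mutation. The labels give 4 libraries of AXL knockout PC9 cells, from 2 clones with 2 libraries each, and 3 libraries of parental PC9 cells. The labels name no treatment, and each clone was grown from a single sorted cell. The libraries are bulk MARS-seq, in which reads are tags from the 3′ ends of polyadenylated RNA.

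The comparison of knockout with parental cells asks what else in the transcriptome differs once AXL is lost. The authors' deposited table gives, per gene, the mean normalized count, the log2 fold change of knockout over parental, its standard error (SE) and the p-value of a Wald test adjusted over the table. Every ± after a log2 fold change is this SE. A gene is called higher or lower where its adjusted p is under 0.05. Whole reads per library were computed from the last digits of the deposited mean and were kept only where a refit returned the deposited fold change. Normalized counts below are these reads divided by the library's size factor, so library levels of 1 gene can be compared with each other. Libraries are numbered within a group by falling size factor, and the numbers only name them. The labels do not say which of these numbered knockout libraries share a clone, and none was assigned to one.

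Eph receptors form the largest family of receptor tyrosine kinases, and their ephrin ligands sit on the surface of neighbouring cells. EphA receptors mainly bind ephrin-A ligands, which are held in the membrane by a lipid anchor, and EphB receptors mainly bind ephrin-B ligands, which span it. Binding signals both ways, forward into the cell with the receptor and in reverse into the cell with the ephrin. In epithelia the pairs set boundaries between cell populations and regulate adhesion and migration. EPHA2 is often abundant in lung adenocarcinoma.

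EFNB2 fell to 0.47-fold of its parental level, while EPHB3, EFNA1, EPHA1, EPHB4 and EPHA2 rose. EPHB2 was slightly lower. EPHA4, EFNA5 and EFNB1 did not pass the test. Of the 10 genes, 5 were higher, 2 lower and 3 not called, where 38.0% of the 16522 genes tested were called (19.5% higher and 18.5% lower). Among genes with a mean of at least 20 the share called was 46.7%. The median log2 fold change of the 10 genes was 0.24 and that of all genes tested was -0.01.

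The promoters of the genes with the greatest fall and the greatest rises among the 10 are shown here, each from 250 bases before to 50 after the annotated start (RefSeq, GRCh38.p14, 5′ to 3′ on the gene's strand). The windows are chr13:106535613-106535912 on the minus strand for EFNB2, chr3:184561535-184561834 on the plus strand for EPHB3 and chr1:155127626-155127925 on the plus strand for EFNA1. Capitals mark matches to the motifs searched, which are described after the sequences.
EFNB2: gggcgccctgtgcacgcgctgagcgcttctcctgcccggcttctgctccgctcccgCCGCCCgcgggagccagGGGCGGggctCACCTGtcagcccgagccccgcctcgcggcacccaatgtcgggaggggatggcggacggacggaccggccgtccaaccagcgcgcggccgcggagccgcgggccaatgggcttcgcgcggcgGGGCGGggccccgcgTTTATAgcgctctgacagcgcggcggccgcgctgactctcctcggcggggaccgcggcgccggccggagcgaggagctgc
EPHB3: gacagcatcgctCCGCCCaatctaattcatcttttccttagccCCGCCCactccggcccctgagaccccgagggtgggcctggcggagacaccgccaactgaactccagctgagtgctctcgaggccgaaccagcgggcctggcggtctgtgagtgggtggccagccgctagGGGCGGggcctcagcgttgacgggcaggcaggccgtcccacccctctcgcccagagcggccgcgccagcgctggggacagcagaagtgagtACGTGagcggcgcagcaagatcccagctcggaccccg
EFNA1: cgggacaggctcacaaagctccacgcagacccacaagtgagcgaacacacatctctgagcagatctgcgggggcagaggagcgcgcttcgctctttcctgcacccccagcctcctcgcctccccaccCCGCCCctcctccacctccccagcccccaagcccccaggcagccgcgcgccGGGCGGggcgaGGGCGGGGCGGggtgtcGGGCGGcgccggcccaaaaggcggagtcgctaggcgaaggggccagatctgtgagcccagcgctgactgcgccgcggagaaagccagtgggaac

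The 6 motifs, searched on both strands, were the SP1 box GGGCGG, the TATA box TATAAA, the E-box CAGGTG bound by SNAI and ZEB factors, the hypoxia response core ACGTG, the AP-1 site TGANTCA and the TEAD site GGAATG. In the printed windows EFNB2 holds 3 SP1 boxes and an E-box 167 bases before the start. It also holds TTTATA 30 bases before the start, which is a TATA box match on the opposite strand only. EPHB3 holds 3 SP1 boxes and an ACGTG 13 bases after the start, and EFNA1 holds 5 SP1 boxes, of which a pair shares 1 base. No match to AP-1 or TEAD lies in these 3 windows. RefSeq entries were matched for 15 of the 16 Eph and ephrin genes in the table, giving 18 windows, since 3 genes have several starts; EPHA10 has no entry. The EPHB2 windows start at 22710588 and 22710589 and almost coincide, so its SP1 box and its E-box are counted in both. The SP1 box lies in 17 of the 18 windows and in 45% of all 35116 windows of this length. The E-box lies in 5 of the 18 windows against 20.6% of all windows, ACGTG in 2 against 21.4%, the TEAD site in 1 against 14%, the TATA box in 1 against 11.5% and the AP-1 site in 0 against 7.7%. The median G and C content was 69.2% in the family's windows and 58.7% in all windows. These matches describe letters in the windows and do not show binding.

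The targeted gene was checked first. AXL had 24, 15, 11 and 22 reads in the knockout libraries, against 1476, 1471 and 1425 reads in the parental libraries. Its log2 fold change was -6.28 ± 0.18 (SE). The tags come from the 3′ end, and where the gene was cut is not given in the sources used here. Reads per library over the 16133 genes resolved (97.6% of those tested) summed to between 7631490 and 8594282, and size factors lay between 0.938 and 1.06.

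Among the ephrin-B ligands, EFNB2 changed most. EFNB2 (ENSG00000125266; GRCh38 chromosome 13, 106489731 to 106535662, minus strand, GENCODE 29) encodes ephrin-B2, the main ligand of EPHB4. Its normalized counts were 1600.4, 1570.0, 1556.8 and 1645.6 in the knockout libraries, against 3412.3, 3473.4 and 3328.8 in the parental libraries. Every knockout library was below every parental library, and both groups were tight. In bulk RNA, fewer cells with the transcript and less of it per cell cannot be told apart. The group means were 1593 ± 39.4 in knockout cells and 3405 ± 72.6 in parental cells (SD, n = 4 and n = 3). EFNB2 fell by 1.10 on the log2 scale, with an SE of 0.05 (95% interval -1.19 to -0.998). The authors' DESeq2 Wald test gave it an adjusted p of 9.95e-105. By p-value it ranked 73 of the 16522 genes tested.

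EFNB1 (ENSG00000090776; chromosome X, 68828997 to 68842147) encodes ephrin-B1, another transmembrane ligand of EphB receptors. Normalized counts of EFNB1 were 794.0, 869.0, 853.1 and 874.5 in knockout libraries, against 968.9, 862.2 and 845.1 in parental libraries. The groups overlapped. The log2 fold change of -0.07 ± 0.07 (SE; 95% interval -0.21 to 0.06) did not pass the test (adjusted p = 0.449). Within each library, EFNB2 gave 2.02, 1.81, 1.82 and 1.88 reads per EFNB1 read in knockout cells, against 3.52, 4.03 and 3.94 in parental cells. These ratios do not depend on the size factors.

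**Figure D1:**
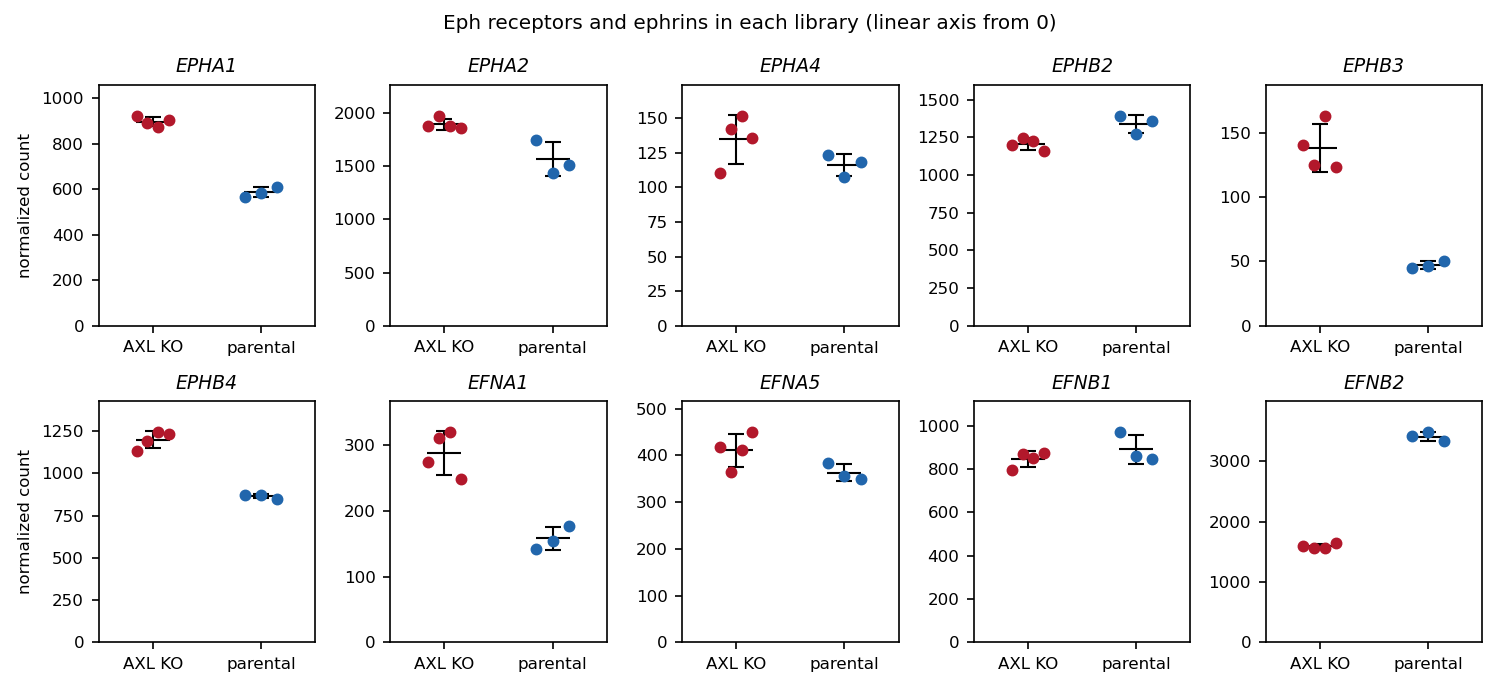
Normalized count of each of the 10 genes (y axis, linear from 0) in the 4 AXL knockout libraries (red, left) and the 3 parental libraries (blue, right); black bars are the mean and SD. EFNB2 sits at 1556.8 to 1645.6 in knockout libraries and at 3328.8 to 3473.4 in parental ones, while the groups of EPHA4, EFNA5 and EFNB1 overlap.

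The EphB receptors moved unequally. EPHB3 (ENSG00000182580; chromosome 3, 184561784 to 184582409, plus strand) encodes a kinase-active receptor that positions epithelial cells in the intestine. It had 140.8, 125.0, 162.9 and 123.7 normalized counts in knockout libraries, against 45.1, 46.3 and 50.6 in parental libraries. The lowest knockout library was thus more than 2-fold above the highest parental one. The log2 fold change was 1.55 ± 0.18 (SE), a 2.92-fold rise (95% interval 1.18 to 1.91, adjusted p = 7.72e-16).

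EPHB4 (ENSG00000196411; chromosome 7, 100802565 to 100827521, minus strand) is the receptor that pairs with ephrin-B2 in vessel growth. Its normalized counts were 1131.1, 1192.0, 1241.3 and 1229.7 in knockout libraries, against 873.0, 870.1 and 849.1 in parental libraries. The groups stood apart. EPHB4 rose by 0.47 ± 0.06 (SE, adjusted p = 9.97e-13), to 1.39-fold of the parental level. With EFNB2 lower and EPHB4 higher, EFNB2 gave 1.41, 1.32, 1.25 and 1.34 reads per EPHB4 read in knockout libraries, against 3.91, 3.99 and 3.92 in parental libraries. The groups did not overlap in this ratio either, which follows from the counts above and was not tested. SLC12A9, a transporter gene, overlaps EPHB4 on the opposite strand (mean normalized count 427, log2 fold change 0.21 ± 0.09, adjusted p = 0.0541).

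EPHB2 (ENSG00000133216; chromosome 1, 22710839 to 22921500, plus strand), a receptor for the same B-type ligands, went the other way by a small amount. It had 1198.2, 1245.0, 1225.7 and 1156.1 normalized counts in knockout libraries, against 1390.9, 1271.6 and 1354.6 in parental libraries. The groups did not overlap, but the highest knockout library and the lowest parental library were close. The log2 fold change was -0.15 ± 0.06 (SE, adjusted p = 0.0343). In refits of the authors' model, chosen after the data were seen, the call was lost without knockout library 1 (-0.15, adjusted p = 0.0609), knockout library 4 (-0.13, 0.101), parental library 1 (-0.12, 0.174) or parental library 3 (-0.14, 0.0968). Reading the Wald statistic against a t distribution (5 degrees of freedom) gave an adjusted p of 0.152. EPHB3 reads per EPHB2 read were 0.118, 0.1, 0.133 and 0.107 in knockout libraries, against 0.0324, 0.0364 and 0.0374 in parental libraries.

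All 3 EphA receptors had positive fold changes, of which 2 passed the test. EPHA1 (ENSG00000146904; chromosome 7, 143390289 to 143408892, minus strand), the founding member of the family and a gene of epithelia, had 922.3, 890.0, 872.8 and 903.3 normalized counts in knockout libraries, against 568.6, 584.6 and 609.8 in parental libraries. The groups did not overlap and each spanned a narrow range. EPHA1 rose by 0.61 ± 0.07 (SE, adjusted p = 1.65e-17), to 1.53-fold of the parental level. ZYX, which encodes the focal adhesion protein zyxin, overlaps it on the opposite strand with a mean of 4500 and a log2 fold change of -0.57 ± 0.05. Whether counting used strand is not given in the sources used here, and without strand reads of overlapping genes cannot be told apart.

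EPHA2 (ENSG00000142627; chromosome 1, 16124337 to 16156087, minus strand) is a receptor of ephrin-A1 that also signals without a ligand. Its normalized counts were 1870.5, 1968.0, 1876.5 and 1854.6 in knockout libraries, against 1739.5, 1436.0 and 1507.5 in parental libraries. Knockout libraries were all higher, and the parental libraries were spread, with a mean of 1892 ± 51.2 in knockout cells and 1561 ± 159 in parental cells (SD, n = 4 and n = 3). EPHA2 rose by 0.28 ± 0.06 (SE, adjusted p = 9.97e-05). Leaving out 1 library at a time, the refitted log2 fold change lay between 0.22 and 0.36 and its adjusted p reached 0.0104 at most.

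EPHA4 (ENSG00000116106; chromosome 2, 221418027 to 221574202), which binds ligands of both classes, had 110.1, 142.0, 151.5 and 135.4 normalized counts in knockout libraries, against 123.1, 107.3 and 118.2 in parental libraries. One knockout library lay inside the parental range. Its log2 fold change was 0.21 ± 0.15 (SE; 95% interval -0.08 to 0.51, adjusted p = 0.287).

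Both A-type ligands among the 10 had positive fold changes, and EFNA1 passed the test. EFNA1 (ENSG00000169242; chromosome 1, 155127460 to 155134857, plus strand) encodes ephrin-A1, a ligand of EPHA2. Its normalized counts were 273.9, 311.0, 318.6 and 247.4 in knockout libraries, against 141.9, 154.5 and 176.8 in parental libraries. The groups stood apart, with knockout libraries 2 and 3 above knockout libraries 1 and 4. EFNA1 rose by 0.87 ± 0.12 (SE, adjusted p = 2.75e-11), a 1.83-fold rise. Per EPHA2 read there were 0.146, 0.158, 0.170 and 0.133 EFNA1 reads in knockout libraries, against 0.0816, 0.108 and 0.117 in parental libraries.

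EFNA5 (ENSG00000184349; chromosome 5, 107376889 to 107670895) encodes ephrin-A5, an axon guidance ligand. It had 417.6, 365.0, 412.0 and 449.0 normalized counts in knockout libraries, against 384.4, 356.3 and 348.6 in parental libraries. Knockout library 2 lay inside the parental range. The log2 fold change was 0.18 ± 0.09 (SE; 95% interval -0.01 to 0.36, adjusted p = 0.128).

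The libraries of the groups did not overlap for 5 of the 10 genes with knockout above and for 2 with knockout below. Over the 16133 genes with reads per library, knockout was above parental without overlap in 23.7% and below in 23.5%, or 47.2% in all. Nothing in the labels says that libraries of 1 clone or of the parental line came from separate cultures, so p-values measure only how much these libraries vary. With 2 clones, differences between founding cells and the loss of AXL cannot be told apart.

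**Figure D2:**
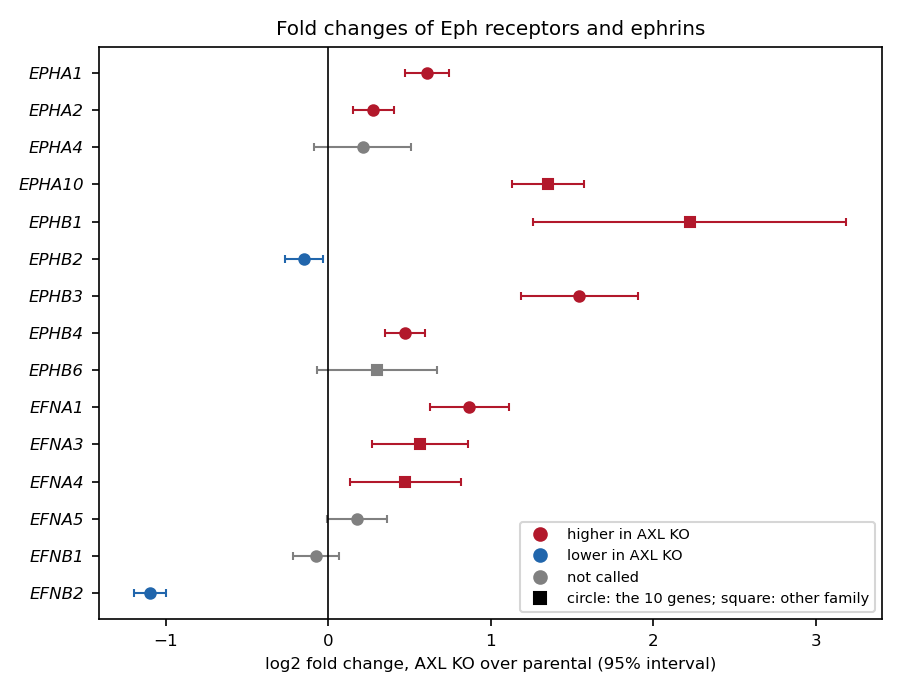
Log2 fold change of AXL knockout over parental (x axis) with 95% intervals from the authors' SE for 15 Eph and ephrin genes, receptors above ligands; red is higher, blue lower and grey not called, circles are the 10 genes and squares other family members. Of the genes drawn, EFNB2, at -1.10, is the 1 below -0.5, while EPHB1, EPHB3 and EPHA10 lie above 1; EPHA6, at -1.03 with the widest interval of the family (-2.88 to 0.83), is not drawn.

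Of the 12 other human Eph and ephrin genes looked for, 6 are in the table; EPHA3, EPHA5, EPHA7, EPHA8, EFNA2 and EFNB3 were not analysed here. Among these 6, 4 were higher, 0 lower and 2 not called by the authors' Wald test, at a median log2 fold change of 0.52, where 19.5% of all genes tested were higher and 18.5% lower. EPHA10 (chromosome 1, 37713880 to 37765133), a receptor without kinase activity, had 371.6, 345.0, 404.8 and 372.2 normalized counts in knockout libraries, against 163.5, 137.8 and 137.1 in parental libraries. The groups stood far apart, with a log2 fold change of 1.35 ± 0.11 (SE, adjusted p = 3.10e-31). EPHB1 (chromosome 3, 134597801 to 135260467), a kinase-active receptor, gave few reads, with 16, 26, 30 and 23 in knockout libraries and 7, 3 and 6 in parental libraries. The ranges did not meet, and the log2 fold change of 2.22 ± 0.49 (SE, adjusted p = 3.51e-05) has a wide 95% interval of 1.26 to 3.19. EPHA6 had 1, 1, 2 and 4 reads in knockout libraries and 8, 2 and 3 in parental libraries, and did not pass the test (adjusted p = 0.433), with a 95% interval of the log2 fold change from -2.88 to 0.83.

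EFNA3 and EFNA4, ligands of EphA receptors, lie beside EFNA1 on chromosome 1 in the order EFNA4, EFNA3, EFNA1 over 71.1 kb (155063731 to 155134857). EFNA3 had 148.5, 166.0, 170.2 and 132.2 normalized counts in knockout libraries, against 101.5, 120.1 and 91.4 in parental libraries, a log2 fold change of 0.56 ± 0.15 (SE, adjusted p = 8.37e-04). EFNA4 had 85.2, 108.0, 114.2 and 107.7 in knockout libraries, against 73.3, 71.8 and 78.5 in parental libraries, a log2 fold change of 0.48 ± 0.17 (SE, adjusted p = 0.0191). All 3 neighbouring ligand genes were thus higher, and none had overlapping groups. Within 100 kb on either side, 13 other genes with a mean of at least 20 were tested, of which 6 were higher, 1 lower and 6 not called. Among all genes with such a mean 46.7% were called in either direction. Over all genes tested, with no minimum mean, 19.5% were higher and 18.5% lower. These neighbours were more often higher than lower. Whether this bears on the 3 ligand genes was not tested. A read-through gene model, AL691442.1, covers EFNA3 and EFNA4 on the same strand, so how their reads were split is uncertain.

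EPHB6 (chromosome 7, 142855061 to 142871094), a receptor with an inactive kinase domain, stood out for its spread. Its normalized counts were 1405.0, 2027.0, 2082.0 and 1385.4 in knockout libraries, against 1378.6, 1412.4 and 1403.2 in parental libraries. Knockout libraries 1 and 4 lay at the parental level and knockout libraries 2 and 3 above it. The mean was 1725 ± 381 in knockout cells and 1398 ± 17.5 in parental cells (SD, n = 4 and n = 3), and the log2 fold change of 0.30 ± 0.19 (SE) had an adjusted p of 0.210. The authors' SE for EPHB6 was above that of 99.5% of the 200 genes closest in mean count, whose median SE was 0.058. For the 10 genes the SE was above between 19.1% and 88.4% of such genes. Among the 10 genes, knockout libraries 1 and 4 also lay on 1 side of libraries 2 and 3 in EFNB2, EPHA1, EPHA2 and EPHA4. EPHB2, EFNA1, EFNA5, EFNA3, EFNA4 and EPHB1 split likewise, as did the markers SFTPB and CDH5 given below. EPHB3, EPHB4, EFNB1, EPHA6 and EPHA10 did not split in this way. Some gaps were small, as in EFNB2 (1570.0 against 1600.4) and EFNA4 (107.7 against 108.0). The split and the markers were picked after their values were seen. The share of all genes that split in this way is not given here, so these genes cannot be set against it. Whether libraries 1 and 4 are 1 clone and libraries 2 and 3 the other was not tested. Among 5 other genes with a mean of at least 20 within 250 kb of EPHB6, 4 were lower and 1 was not called, with a median log2 fold change of -0.93. Among all genes with such a mean 46.7% were called in either direction. Over all genes tested, with no minimum mean, 18.5% were lower. The same window held 1 higher, 3 lower and 2 not called around EPHB3. Around EPHA10 it held 1 higher, 5 lower and 9 not called. Around EFNA1 it held 9 higher, 1 lower and 15 not called, with EFNA3 and EFNA4 among the higher. Windows around the other Eph and ephrin genes are not given here.

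**Figure D3:**
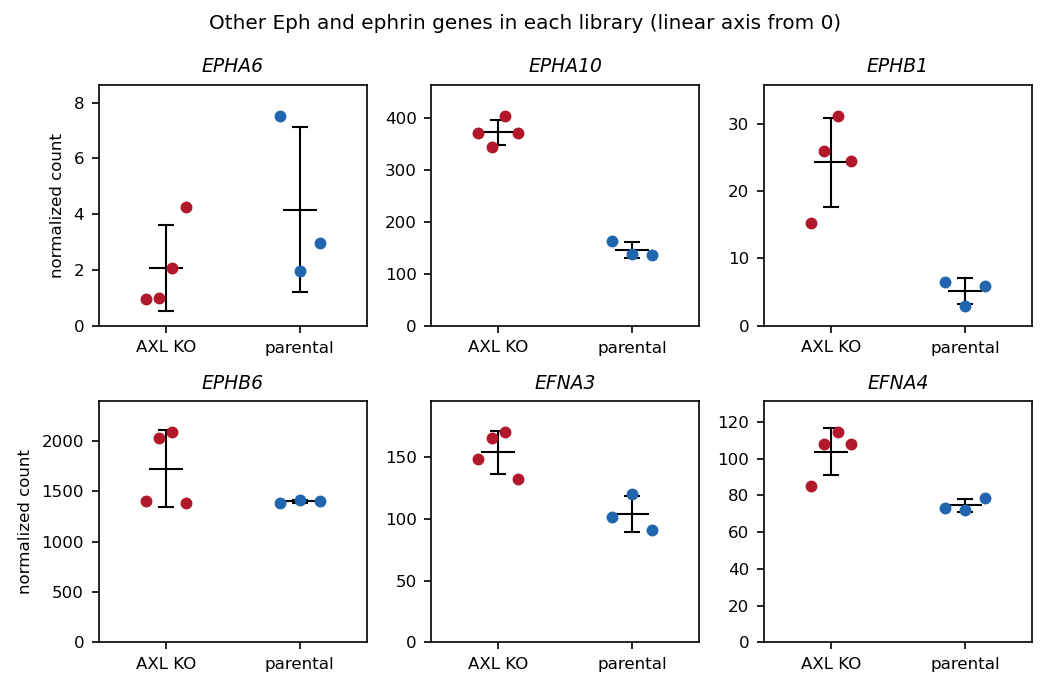
Normalized count of the 6 other Eph and ephrin genes in the table (y axis, linear from 0) in the 4 AXL knockout libraries (red, left) and the 3 parental libraries (blue, right), with mean and SD in black. EPHB6 in knockout cells falls at 2 levels, 1385.4 and 1405.0 against 2027.0 and 2082.0, while its parental libraries lie between 1378.6 and 1412.4.

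**Figure D4:**
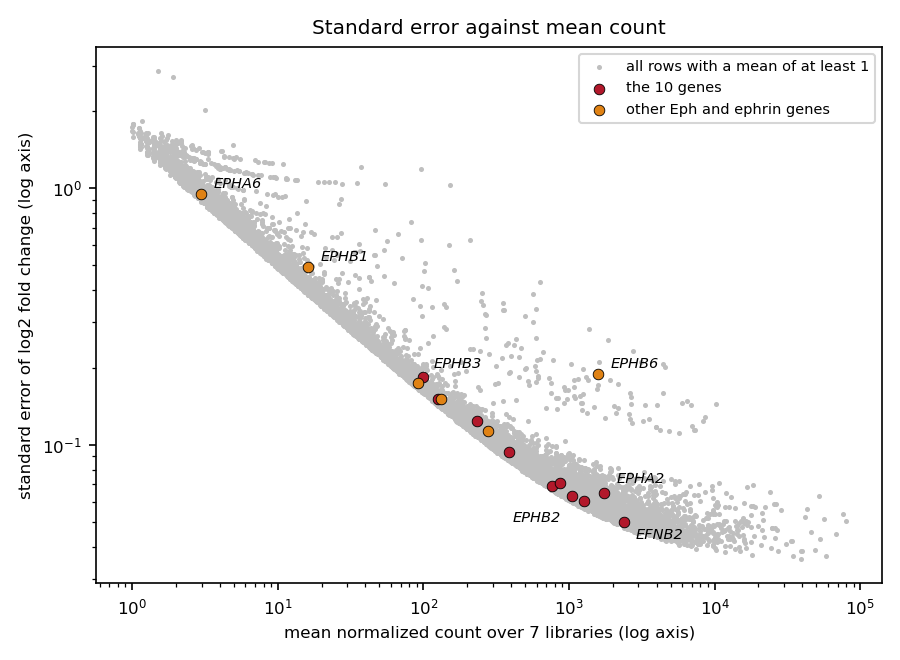
Standard error of the log2 fold change (y axis, log scale) against the mean normalized count over the 7 libraries (x axis, log scale) for all genes with a mean of at least 1 (grey), with the 10 genes in red and the other family members in orange. EPHB6, at an SE of 0.19, lies above the main band, while the 10 genes lie within it.

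Genes that act with Eph receptors and ephrins were counted in lists, of which 3 are given here. Beside the counts that follow, 38.0% of all genes tested were called, and 46.7% of those with a mean of at least 20. Of 19 adaptors and exchange factors in forward signalling, 8 were higher, 3 lower and 8 not called (57.9% called), with a median log2 fold change of 0.21 (ARHGEF15, also listed, was not analysed here). GRB7, an adaptor that binds EphB1, had 424.3, 484.0, 458.7 and 408.5 normalized counts in knockout libraries, against 224.6, 250.98 and 229.4 in parental libraries (log2 fold change 0.92 ± 0.10, adjusted p = 4.65e-19). The adaptor NCK2 rose by 0.73 ± 0.09 and TIAM1, an exchange factor for the GTPase Rac, by 0.67 ± 0.08, while the adaptor CRK fell by 0.33 ± 0.06 on the log2 scale (adjusted p = 1.53e-13, 5.36e-15 and 1.83e-08). CHN1, which encodes a Rac-inactivating protein downstream of EphA4 and is named here after its value was seen, had a mean of 5.34 ± 1.62 in knockout cells and 30.9 ± 5.60 in parental cells (SD, n = 4 and n = 3; adjusted p = 1.53e-07).

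Of 9 genes of reverse signalling from B-type ephrins, 4 were higher, 2 lower and 3 not called, with a median of 0.03. That is 66.7% called, beside 46.7% of all genes with a mean of at least 20. RGS3, a regulator of G protein signalling that binds the tail of B-type ephrins, had 310.3, 310.0, 286.4 and 358.3 normalized counts in knockout libraries, against 162.6, 159.5 and 137.1 in parental libraries (log2 fold change 1.046 ± 0.118, adjusted p = 1.81e-17). The scaffold gene MAGI1 rose by 0.80 ± 0.10 and the polarity gene PARD6B by 0.76 ± 0.19, whereas DVL2, a Dishevelled gene, fell by 0.42 ± 0.08 (adjusted p = 1.62e-14, 3.59e-04 and 2.70e-07).

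Of 12 genes of cleavage and turnover, 6 were higher, 4 lower and 2 not called, with a median of 0.15. That is 83.3% called, beside 46.7% of all genes with a mean of at least 20. MMP14, a membrane-bound metalloproteinase that cleaves EphA2, had 17.2, 6.0, 7.3 and 9.6 normalized counts in knockout libraries, against 271.6, 275.6 and 230.4 in parental libraries. MMP14 fell by 4.68 ± 0.26 on the log2 scale (adjusted p = 5.01e-68). RHBDL2, a rhomboid protease that cleaves ephrin-B3, had 72.8, 64.0, 61.2 and 70.4 in knockout libraries, against 13.2, 9.8 and 6.0 in parental libraries, a rise of 2.79 ± 0.33 (adjusted p = 5.70e-16). Both differences left wide gaps between the groups. CBL, a ubiquitin ligase that acts on activated receptor kinases, rose by 0.46 ± 0.07 and ADAM10, a sheddase of A-type ephrins, by 0.35 ± 0.06 (adjusted p = 4.45e-10 and 9.90e-09).

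**Figure D5:**
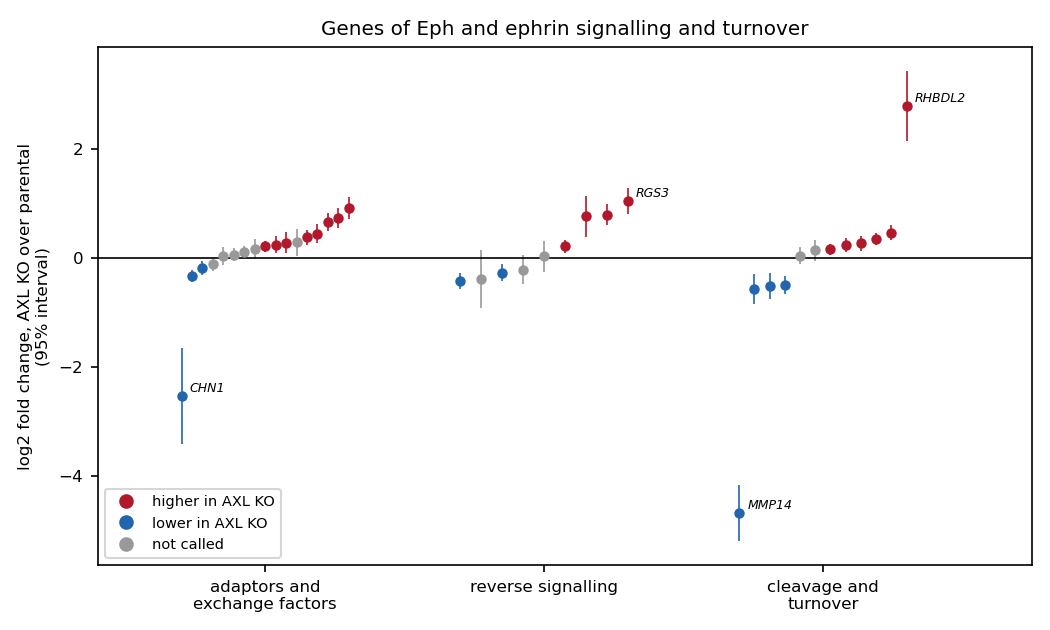
Log2 fold change of AXL knockout over parental with 95% intervals (y axis) for genes of 3 lists with a mean of at least 10, ordered by fold change within a list; red is higher, blue lower and grey not called. Most points lie near 0, and the 4 genes beyond 1 in either direction are CHN1, RGS3, RHBDL2 and MMP14.

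The labelled cell type was checked against marker genes. All 6 epithelial markers were in the table, with mean normalized counts from 2656 to 39337, of which 3 were higher (KRT8, KRT18 and KRT19) and 1 was lower (CDH1). Of 5 lung lineage markers, NKX2-1 had 0 reads in all 4 knockout libraries and 9.71 ± 0.76 normalized counts in parental libraries (SD, n = 3), and SFTPA1 and SFTPC were not analysed here. SFTPB had 286.4, 125.0, 117.3 and 307.2 normalized counts in knockout libraries, against 114.6, 128.9 and 108.2 in parental libraries (log2 fold change 0.83 ± 0.44, adjusted p = 0.125). NAPSA had a mean of 3.57 ± 1.42 in knockout cells and 1.61 ± 0.54 in parental cells (SD, n = 4 and n = 3; adjusted p = 0.409). The 5 leukocyte markers gave 2 rows, each with a group mean of at most 13.4. CD14 was called higher, with 13.4 ± 3.80 in knockout cells and 2.28 ± 0.61 in parental cells (SD, n = 4 and n = 3; adjusted p = 0.00101), and CD79A was not called. Of 4 endothelial markers, PECAM1 had a mean of 1777 ± 33.3 in knockout cells and 351 ± 14.9 in parental cells (SD, n = 4 and n = 3). CDH5 had 389.8, 221.0, 236.6 and 374.3 in knockout libraries, against 459.5, 461.6 and 443.9 in parental libraries, and VWF had a mean of at most 4.87 in either group. EFNB2 and EPHB4 are also genes of endothelium, and the part of these markers in their differences was not tested. COL1A1 was the 1 fibroblast marker of 5 in the table. COL1A1 was called lower by the authors' Wald test (adjusted p = 0.00235). Its mean was 84.0 ± 6.85 in knockout cells and 126 ± 28.1 in parental cells (SD, n = 4 and n = 3).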

How the data were processed

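Bulk MARS-seq was done on 4 AXL knockout and 3 parental PC9 libraries. Priming from the poly-A tail, transcription of the cDNA, NextSeq sequencing, mapping to human and filtering are given per the labels' protocols, and DESeq2 per the submitters' processing notes. Aligner, counter, build, strand use and versions were not given in the sources used here. The authors' columns, per the file headers, are a signal (the mean normalized count), a log2 fold change and its SE, also log2, the Wald statistic as a score, and a p-value raw and adjusted. The main results are these statistics as deposited. The edgeR fit meant for counts was not run, since the table holds no column of counts.

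The deposited mean is a sum of whole reads times 1 step per library. The 7 steps were read from the 68 rows with a mean above 0 and under 0.6, all of which they explain. The side of each library was taken from the split whose refit of the authors' model returned the deposited fold changes: it did so in 52 of 52 distinct low rows, and the next best split in 0. It puts 4 libraries against 3, as the labels have 4 knockout and 3 parental libraries, so positive fold changes are higher in knockout cells. Reads were solved by lattice reduction for rows with a mean of at most 5000 and kept where a single solution returned the deposited fold change to within 1e-11. Of 16160 rows tried, 16133 were resolved, 10 had several solutions and 17 had none. The method was tested on simulated data. These reads hold 66.4% of the summed means of 12209504. Counting error was not given separately, since the SE covers it.

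Gene symbols were matched for 16428 rows. Positions are from GENCODE 29 (GRCh38), and promoters from RefSeq. The 10 genes and all lists were chosen with earlier results of these data known. Named genes are all Eph and ephrin genes and up to 4 genes from each of the 3 lists given. Those from the lists have an adjusted p under 0.05, a mean of at least 20 and the smallest p. AXL, CHN1, overlapping genes and markers are named besides. From a list of AXL and its family only AXL is given. The result of 1 other list is not reported here. Alternatives were a t distribution, a mean minimum, a threshold of 0.01, a 2-fold minimum, a null of 0.5, centring, a ratio of group means with a pseudocount of 1, and leaving out each library. Refits without a library used the dispersion implied by the authors' SE, with Benjamini-Hochberg adjustment over the resolved rows. Python 3.11.15, NumPy 2.4.6, SciPy 1.17.1 and statsmodels 0.14.6 were used.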

Additional observations from a re-analysis of the deposited data

How the results depend on the processing

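Over the 10 genes and 20 alternatives each, 190 of 200 values kept their direction and their side of the threshold (or, where there was no test, moved by less than the spread between libraries), 10 lost the call and 0 reversed. The losses were 7 for EPHB2 and 1 each for EPHA1, EPHA2 and EPHB4, those 3 under a null of an absolute log2 fold change of 0.5. Ratios of group means carried no test and so could not lose a call. EPHA4, EFNA5 and EFNB1 were not called and had no call to lose. The 2-fold minimum is not among these 20 alternatives and was applied only to the counts of called genes. Under it only EPHB3 and EFNB2 kept the call, and EFNA1, EPHA1, EPHB4, EPHA2 and EPHB2 lost it. The 5 genes called higher became 1 with a 2-fold minimum and 2 under that null. The 2 called lower became 1 with a t distribution, at a threshold of 0.01, with a 2-fold minimum and under that null. In refits without 1 library at a time, chosen after the data were seen, the count of higher genes was 5 in each and that of lower genes lay between 1 and 2, with EPHB2 lost without knockout library 1 or 4 or parental library 1 or 3. Their log2 fold changes ranged from -1.11 to -1.08 for EFNB2, 1.46 to 1.60 for EPHB3, 0.80 to 0.96 for EFNA1, 0.59 to 0.64 for EPHA1 and 0.45 to 0.50 for EPHB4. Centring moved values by 0.0044. No paired analysis was possible because the values are not tied to the replicate numbers of the labels, and clones were not compared for the same reason. Depth limits EPHA6 most, with 1 to 4 reads in knockout and 2 to 8 in parental libraries and an SE of 0.95.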
